A study of Mus musculus with 30 samples.

Results

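The late change of the wild-type mouse aorta in the calcium chloride model of aneurysm was taken as the difference between 6 of the series' 30 arrays: 3 of wild-type C57BL/6 mice 42 days after 0.5 M CaCl2 had been laid around the aorta (wild_Ca_d42_1 to 3), and 3 of wild-type C57BL/6 mice that had not been operated on (wild_pre_1 to 3). The members were picked out by these titles, and the comparison was chosen with earlier results of these data known. All non-control probes of the scanner files entered. Total RNA was hybridised to single-colour Agilent arrays, 1 array per sample. The difference holds the operation, the CaCl2 and the passage of 42 days together, because the unoperated mice had none of them. Other arrays are used only beside it: saline-treated (sham) wild-type arrays at day 42, wild-type CaCl2 arrays at day 7, and unoperated and day 42 CaCl2 arrays of uMT mice of the same strain, which carry a germline defect that leaves them without mature B cells. The labels used here give no age or sex, do not say whether mice were pooled, and call the tissue of every sample abdominal aortic aneurysm, the unoperated ones included. Nothing says that replicates came from separate animals, so p-values measure the spread between samples.

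Periaortic CaCl2 injures the vessel from the outside and is known for calcium deposition, fragmentation of elastic fibres, loss of medial smooth muscle and entry of macrophages and lymphocytes. The healthy media is made almost entirely of contractile smooth muscle cells, whose actin, myosin and calponin transcripts are among the most abundant in the wall. Macrophages that take up debris secrete elastases, cathepsins and osteopontin, and B cells that become plasma cells secrete immunoglobulin, which acts on myeloid cells through Fc receptors and the kinase Syk. In whole tissue, fewer cells of a type and less RNA per cell cannot be told apart.

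A level is the log2 signal of a probe minus the 75th percentile of its array, so that 0 is the 75th percentile. Levels of different probes cannot be set against each other. Between 55.2% and 56.7% of probes were well above background on the unoperated arrays and between 50.6% and 61.6% on the CaCl2 arrays, of which replicate 3 was the lowest. The lowest correlation between 2 unoperated arrays was 0.988, and between 2 CaCl2 arrays 0.973. The defining markers of the labelled tissue were present: Acta2, Myh11, Tagln and Cnn1 were well above background on all 6 arrays. The sham day 42 replicate 2 array was dim, with 36.5% of probes well above background, and was left out of the fit, and counts with it are given as those of all 30 arrays. The 3 unoperated arrays lay on 1 slide and the 3 CaCl2 arrays on another, so slide and group cannot be told apart from these 6 arrays. The sham day 42 replicate 1 array lay on the slide of the unoperated arrays and replicate 3 on that of the CaCl2 arrays. They are the arrays that let a slide term be fitted in wild type, which was done as an alternative called the fixed slide term. That fit used 23 arrays and left 13 residual degrees of freedom, against 29 and 19 in the main fit. In a call lost with it, slide and lower precision cannot be told apart.

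Of 23266 genes tested, 4010 (17.2%) were higher and 3026 (13%) lower at day 42 with an adjusted p under 0.05 (limma, Benjamini-Hochberg), which is 30.2% in all. At least 1 log2 unit was reached by 2850 of the higher (12.2% of all genes tested) and 1465 of the lower (6.3%), and at least 2 log2 units by 1443 and 378. Over all genes the median change was 0.04 and its SD 1.12. The arrays of the groups did not overlap for 50.2% of genes (27.8% higher, 22.4% lower). Of the genes tested, 468 exceeded background on every CaCl2 array and on no unoperated array, and 150 did the reverse. With all 30 arrays the counts were 2249 higher and 1468 lower, and with the fixed slide term 1388 and 892.

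Saa3, an acute-phase serum amyloid A made by macrophages, read -6.27, -6.60 and -6.35 on the unoperated arrays and 2.62, 3.82 and 4.21 on the CaCl2 arrays. It was not well above background on any unoperated array, and it was at least 242-fold higher at day 42 (adjusted p = 2.34e-07). Spp1, osteopontin, read -3.55, -2.84 and -5.35 against 5.64, 5.73 and 5.03, a change of 9.38 ± 1.13 (SE, adjusted p = 3.06e-06), with 2 of 3 unoperated arrays above background. Jchain, which joins the chains of IgA and IgM, read -6.50, -1.38 and -5.13 against 4.44, 5.27 and 6.85, a change of 9.86 ± 1.04 (adjusted p = 7.23e-07). Unoperated replicate 2 stood above the other unoperated arrays for Jchain, and it was the only one of the 3 on which Jchain was above background. For each of these genes the groups were apart by more than the whole range of either.

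Atp6v0d2, a proton pump subunit of osteoclasts and macrophages, was at least 151-fold higher, and Mmp12, macrophage elastase, at least 89.2-fold. Slpi, an inhibitor of serine proteases, was at least 156-fold higher, Syngr1, a synaptic vesicle protein, at least 60.9-fold, Thbs4, a thrombospondin of the matrix, at least 45.4-fold, and Stra6l, a retinol transporter, at least 32.4-fold. Clec4d, a C-type lectin of myeloid cells, changed by 7.83 ± 0.83, and S100a8 and S100a9, the calprotectin subunits of neutrophils, by 6.98 ± 1.14 and 6.83 ± 1.69. AA467197 changed by 6.81 ± 0.68. Kng1, the kininogen from which bradykinin is cut, changed by 7.64 ± 0.54, with levels of -3.29, -3.62 and -4.58 against 3.42, 3.97 and 4.05, and the rodent copy Kng2 was at least 28.8-fold higher. Other probes of Mmp12, Syngr1 and Kng1 changed by 4.42, 3.02 and 2.59. Kng1 and Kng2 are near-identical copies whose signals a probe can share. All 15 of these genes had CaCl2 arrays above every unoperated array, which the rule for naming them required.

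**Figure D1:**
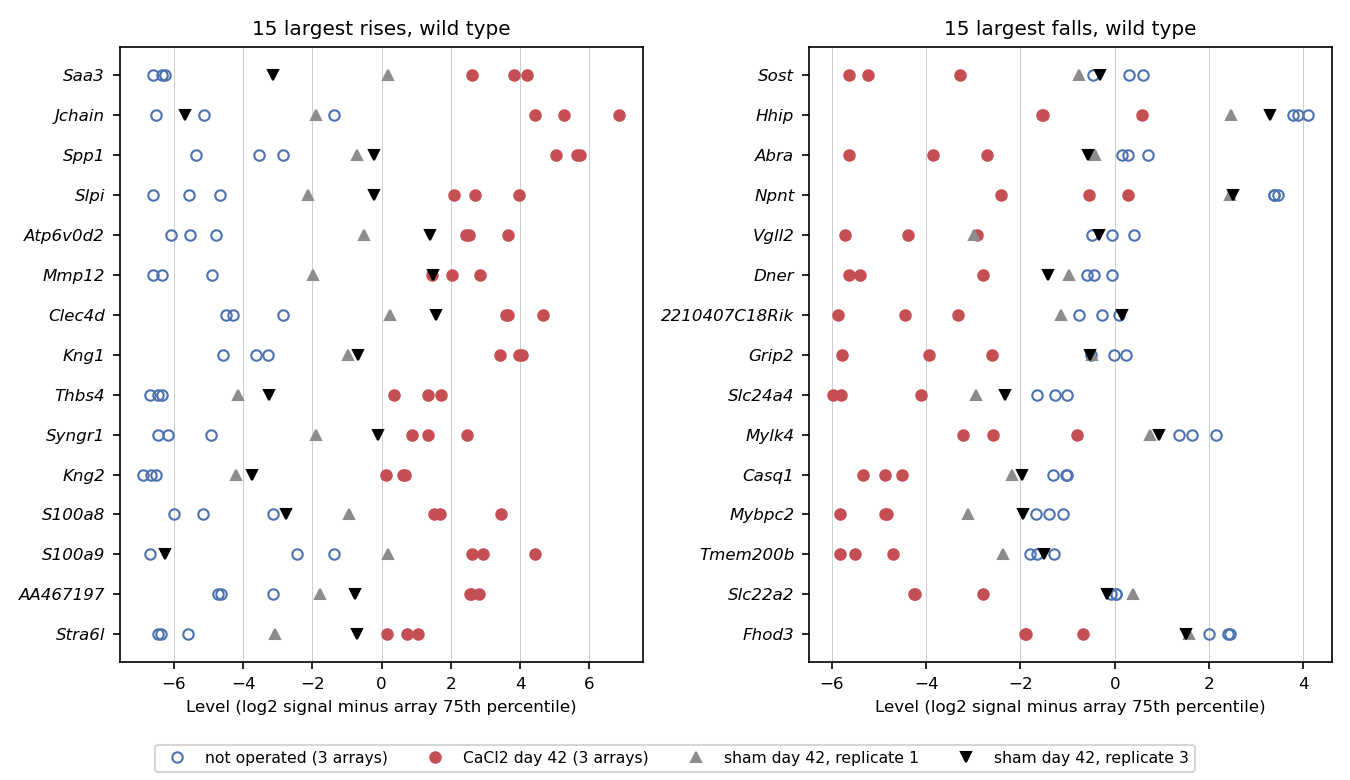
Levels of the 15 largest rises and 15 largest falls on each wild-type array, on a log2 scale where 0 is the array's 75th percentile. Open circles are the 3 unoperated arrays, filled circles the 3 CaCl2 day 42 arrays, and triangles sham day 42 replicates 1 and 3; Saa3 runs from -6.60 to 4.21 and Sost from 0.60 to -5.64, and for most rises the sham arrays lie between the groups.

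Sost, sclerostin, an inhibitor of Wnt signalling made by osteocytes and by aortic smooth muscle, read 0.60, -0.47 and 0.29 on the unoperated arrays and -3.27, -5.64 and -5.22 on the CaCl2 arrays, and fell by 4.85 ± 0.76 (adjusted p = 5.75e-05). Only 1 of the 3 CaCl2 arrays was above background for it. Hhip, a decoy receptor for hedgehog ligands, read 4.10, 3.88 and 3.78 against -1.55, -1.53 and 0.57, a fall of 4.75 ± 0.86 (adjusted p = 0.000267). Npnt, nephronectin, an integrin ligand of basement membranes, read 3.46, 3.38 and 3.39 against 0.28, -0.54 and -2.42. The unoperated arrays were close to one another for Npnt, while the CaCl2 arrays were spread widely, with replicate 3 the lowest.

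Among the other falls, Abra, an actin-binding protein of muscle, fell by 4.45 ± 0.85, and Vgll2, a cofactor of TEAD transcription factors, by 4.30 ± 0.68. Dner, a Notch ligand, fell by 4.25 ± 0.77, and Grip2, a scaffold of glutamate receptors, by 4.01 ± 0.71. The ion exchanger Slc24a4 fell by 3.98 ± 0.55 and the organic cation transporter Slc22a2 by 3.77 ± 0.82. The myosin light chain kinase gene Mylk4 fell by 3.91 ± 0.81, the formin Fhod3 by 3.76 ± 0.53, and 2210407C18Rik by 4.23 ± 0.89. No CaCl2 array was above background for Casq1, the calcium store protein calsequestrin (at least 8.04-fold lower), Mybpc2, fast myosin-binding protein C (at least 6.67-fold lower), or Tmem200b (at least 5.83-fold lower).

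The contractile smooth muscle list fell almost as a whole. Of its 20 genes, all tested, 19 were lower and none higher, against 13% lower over all genes, and the median change was -2.51. All 20 had CaCl2 arrays below every unoperated array, which held for 22.4% of all genes. Myh11, smooth muscle myosin heavy chain, read 7.87, 7.77 and 7.72 unoperated and 5.63, 4.49 and 4.19 at day 42, an 8.08-fold fall (adjusted p = 0.00106). Acta2, smooth muscle actin, read 10.17, 9.88 and 10.03 against 8.86, 8.27 and 7.73, a 3.34-fold fall (adjusted p = 0.0168). Within the CaCl2 group replicate 1 was the highest and replicate 3 the lowest for both Myh11 and Acta2.

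Cnn1, calponin, fell by 2.39 ± 0.60, Myocd, the coactivator myocardin that drives these genes through serum response factor, by 2.70 ± 0.68, and Des, desmin, by 3.02 ± 0.52. Kcnmb1, the regulatory subunit of the large-conductance potassium channel, fell by 3.05 ± 0.66. Tagln, SM22, was the member that did not pass: it read 10.28, 9.87 and 10.04 against 9.28, 8.79 and 8.87, a change of -1.08 ± 0.46 (adjusted p = 0.081). The summed signal of the list, in multiples of the array's 75th percentile, was 4545 to 5451 on the unoperated arrays and 1265 to 2136 on the CaCl2 arrays. With all 30 arrays 18 of the 20 were lower, and with the fixed slide term 12. Acta2, Cnn1 and Myocd were not called with that term (adjusted p = 0.202 for Acta2 and 0.125 for Myocd), where their changes kept the same sign, and Acta2 was not called without unoperated replicate 1 or without CaCl2 replicate 3.

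**Figure D2:**
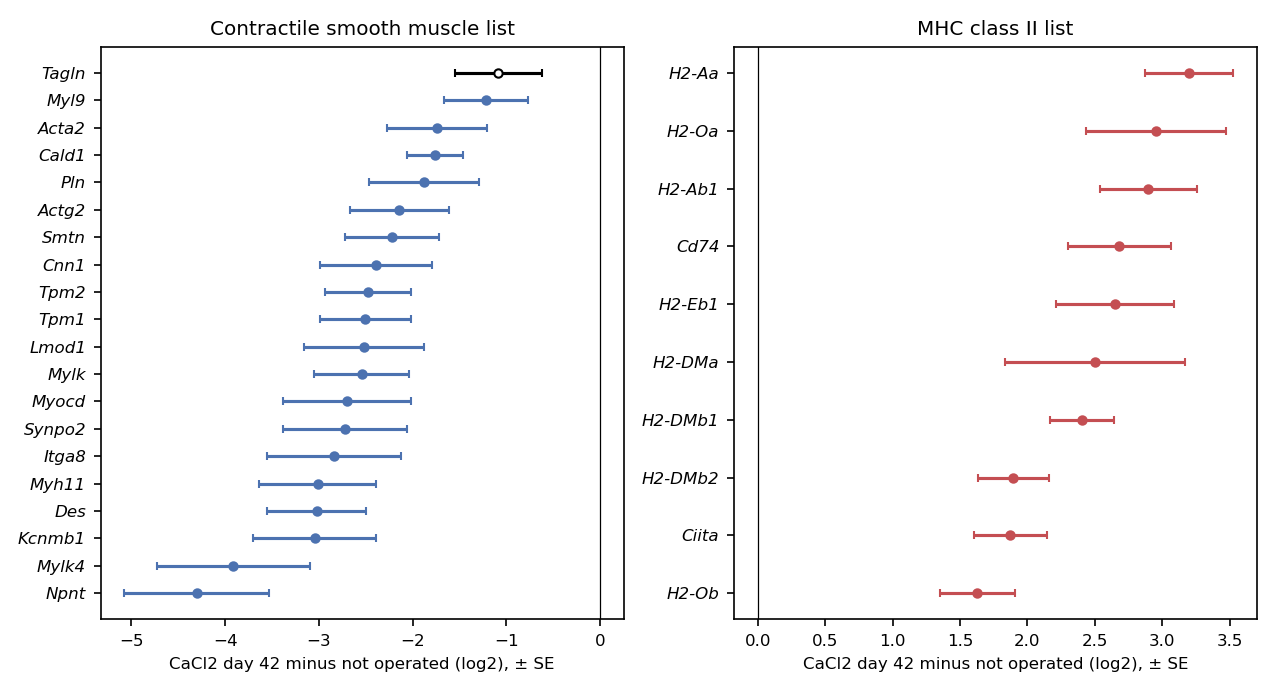
Change of each gene of the contractile smooth muscle list and of the MHC class II list, CaCl2 day 42 minus unoperated in log2 units, with the standard error of the fit as bars (3 arrays a group). Blue points passed the test as lower, red as higher, and the open point, Tagln, did not pass; 19 of 20 contractile genes are lower and 10 of 10 class II genes higher.

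Receptors and channels through which smooth muscle responds to signals were lower as well. Of 22 vasoactive receptor genes 14 were lower and 2 higher (median -1.77). The serotonin receptors Htr1b and Htr2a fell by 3.40 ± 0.53 and 2.94 ± 0.47 and the prostaglandin receptor Ptger3 by 3.03 ± 0.52. The adrenoceptor Adra1a was at least 2.60-fold lower and above background on no CaCl2 array. Of 18 potassium, calcium and chloride channel genes 10 were lower and 2 higher (median -1.20). Ryr2, a calcium release channel, fell by 3.17 ± 0.71 and Ryr3 by 2.05 ± 0.57, while Trpc6, a cation channel, rose by 1.75 ± 0.50. With the fixed slide term 11 receptor genes and 7 channel genes were lower, and neither Ryr gene was called. Without CaCl2 replicate 3 Ryr3 was not called, and without unoperated replicate 1 Trpc6 was not.

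The promoter element named for this gene group, the CArG box bound by serum response factor, was looked for in the 250 bases before the gene start (RefSeq, GRCm38.p6). Windows were found for 16 of the 20 genes, and an exact match, which reads the same class of letters on either strand, was in 1 of them against 1.47% of all 32851 windows. That gene is Myl9, a regulatory light chain, and its element is shown with 10 bases on either side (plus strand, chr2:156775293-156775322, the element in capitals).
Myl9: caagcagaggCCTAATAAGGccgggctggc

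**Figure D3:**
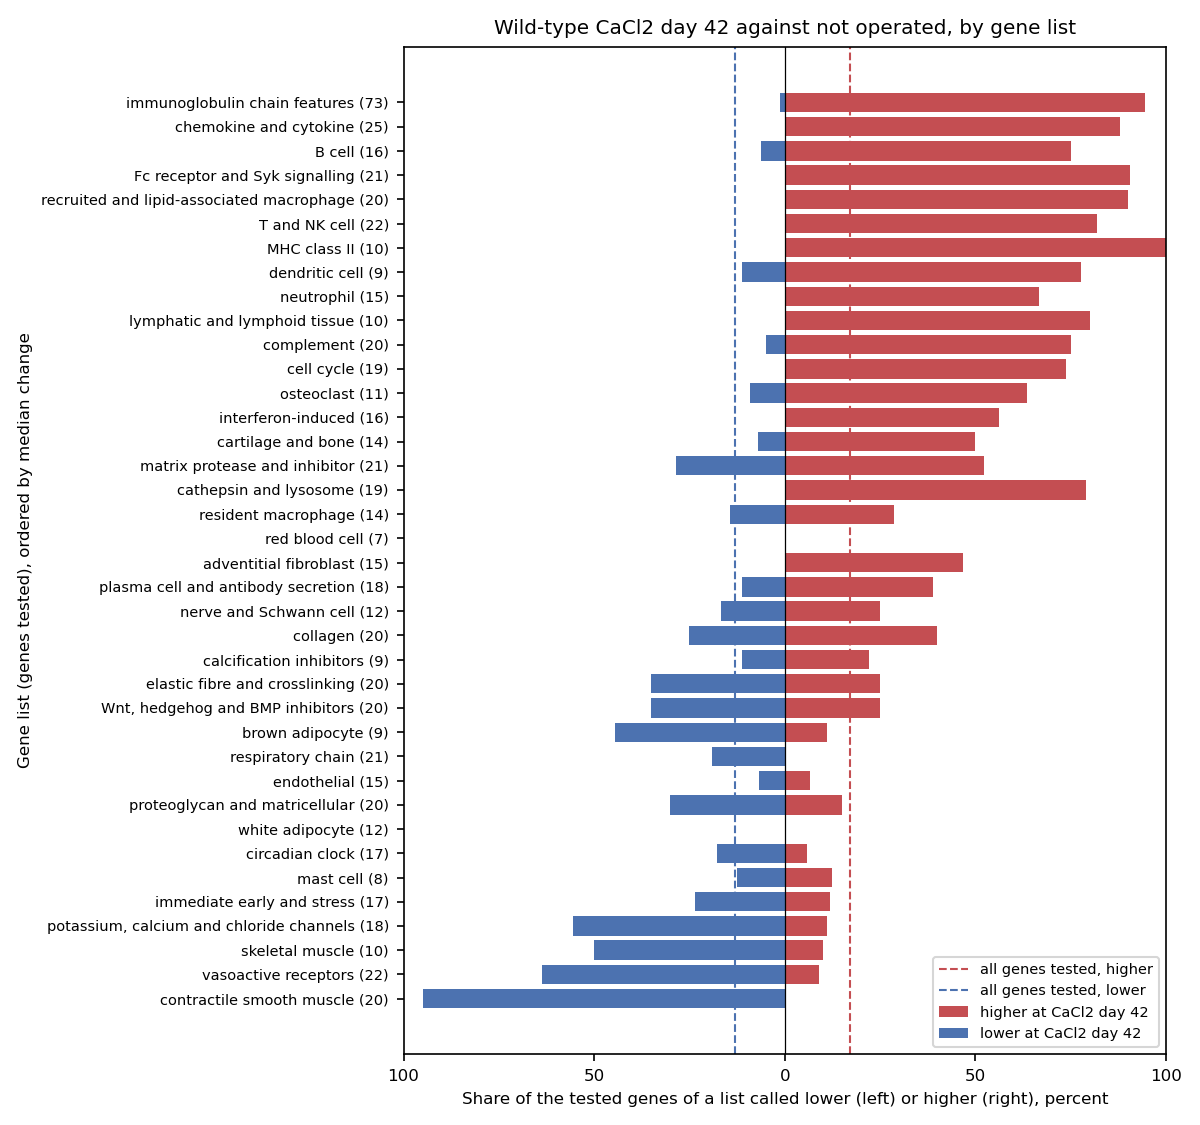
Share of the tested genes of each list (7 or more tested) called higher (red, right) or lower (blue, left) at CaCl2 day 42 against unoperated, in percent, ordered by median change, with the number tested in brackets. Dashed lines mark the shares over all genes, 17.2% higher and 13% lower; the contractile list, with 19 of 20 lower, stands at the bottom and immune lists at the top.

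Macrophage genes were higher at day 42. Of 20 tested genes of recruited and lipid-associated macrophages 18 were higher and none lower (median 3.11). Trem2, a lipid-sensing receptor of macrophages, read 0.52, 0.54 and 0.07 unoperated and 6.09, 5.94 and 6.83 at day 42, a 60.0-fold rise (adjusted p = 2.3e-07). Cd68, a lysosomal macrophage protein, read 0.72, 1.20 and 0.44 against 5.25, 5.24 and 5.50. Itgax, the integrin CD11c, rose by 6.78 ± 0.65 and Lgals3, galectin-3, by 5.23 ± 0.57. All CaCl2 arrays lay far above the unoperated ones for these genes, by more than the range of either group. Of the 20, 11 were higher with the fixed slide term.

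The resident macrophage list was divided. Of 14 genes tested 4 were higher and 2 lower (median 0.82), close to the shares over all genes. Mrc1, the mannose receptor, rose by 2.21 ± 0.47, Pf4 by 2.11 ± 0.52 and the chemokine Ccl8 by 6.04 ± 0.70. Cd163, the haemoglobin scavenger receptor, read -1.66, -1.65 and -2.04 against -3.86, -3.65 and -3.75 and fell by 1.97 ± 0.46. Mrc1, Pf4 and Cd163 were not called with the fixed slide term.

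Osteoclast genes, many of which macrophages also use, followed the recruited macrophage genes in part: 7 of 11 were higher and 1 lower (median 1.65). The filter took in 2 of the 11 through the CaCl2 arrays, with no unoperated array above background. Dcstamp, needed for cell fusion, rose by 5.84 ± 0.78, Acp5, tartrate-resistant acid phosphatase, by 2.68 ± 0.59 and Ctsk, cathepsin K, by 2.32 ± 0.43. Calcr, the calcitonin receptor, was at least 2.10-fold higher. With all 30 arrays 4 osteoclast genes were higher and with the fixed slide term 1, Dcstamp, Acp5, Ctsk and Calcr being among those not called with that term. Of 19 cathepsin and lysosome genes 15 were higher and none lower (median 1.28), with Ctss, cathepsin S, up by 5.56 ± 0.65, Ctsb by 1.96 ± 0.27 and Lipa, lysosomal acid lipase, by 1.93 ± 0.35. Of these 19, 5 were higher with the fixed slide term.

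Complement genes rose as a group. Of 20 tested 15 were higher and 1 lower (median 1.89). C3, the central component, read 5.38, 5.43 and 4.94 unoperated and 9.31, 9.34 and 9.77 at day 42, an 18.6-fold rise (adjusted p = 9.32e-09). C4b rose by 3.73 ± 0.25, C3ar1, the receptor for the C3a fragment, by 3.37 ± 0.56, and Cfi, the protease that inactivates C3b and C4b, was at least 24.2-fold higher and above background on no unoperated array. With all 30 arrays 12 were higher and with the fixed slide term 11, C3ar1 not among them.

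Antibody and B cell genes showed the widest range. Immunoglobulin chain features, named by their description in the scanner files, numbered 73 after the filter. Of these, 44 had passed it through the day 42 CaCl2 arrays and were above background on no unoperated array. Their being higher there was thus partly fixed by the filter. Whether other groups also brought them through was not counted. Of the 73, 69 were higher and 1 lower, and their summed signal was 5.35 to 13.6 times the array's 75th percentile unoperated and 462 to 1537 times at day 42. The kappa constant feature (mm9 chr6:70676692-70676751) read -6.36, -0.14 and -5.49 unoperated and 4.76, 5.82 and 7.02 at day 42. The largest change was that of a heavy chain J558-family feature (mm9 chr12:114496985-114497044), at -6.52, 2.24 and -6.67 against 8.01, 8.63 and 9.46. In both, unoperated replicate 2 stood several log2 units above the other unoperated arrays and was the only one above background, and all 3 CaCl2 arrays were higher still.

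A lambda variable 1 feature (mm9 chr16:19085111-19085170) was above background on no unoperated array and at least 157-fold higher at day 42, and a kappa variable 14-111 feature (mm9 chr6:68206771-68206830) at least 31.1-fold. The Igh-VJ558 feature changed by 7.49 ± 0.83 (4.10 at its other probe), and a second J558-family feature (mm9 chr12:114497090-114497149) by 11.76 ± 1.45. Immunoglobulin segments are near-identical to one another, so a probe can take signal from several of them. With the fixed slide term 44 of the 73 features were higher. The median change of the 73 was 4.98, and 1.75 after normexp and quantile normalization.

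Of 16 B cell genes 12 were higher and 1 lower (median 3.40). Of the 16, 5 had passed the filter through the CaCl2 arrays and were above background on no unoperated array. The median was 2.96 under quantile normalization and 0.73 after normexp and quantile normalization, with 11 higher in both. Cd79a, which carries the signal of the antigen receptor on B cells, read -2.60, -2.92 and -3.03 against -1.72, -1.26 and -1.09. At its other probe Cd79a changed by 0.11. Ms4a1, CD20, changed by 3.43 ± 0.80, and Cd72, an inhibitory coreceptor, rose by 5.25 ± 0.37. Pou2af1, a B cell transcription cofactor, was at least 12.3-fold higher and Fcmr, the IgM Fc receptor, at least 6.55-fold. In the plasma cell and antibody secretion list 7 of 18 genes were higher and 2 lower (median 0.45). Mzb1, a chaperone of IgM assembly, was at least 12.1-fold higher and Derl3, a factor of protein degradation in the endoplasmic reticulum, rose by 2.29 ± 0.48. Of 22 T and NK cell genes 18 were higher and none lower (median 2.95), with Cd3d and Cd3g, chains of the T cell receptor complex, up by 4.75 ± 0.72 and 4.08 ± 0.57. Of these 22 genes 5 had passed the filter through the CaCl2 arrays and were above background on no unoperated array. After normexp and quantile normalization the median of the 22 was 0.92, and that of the recruited macrophage list 2.61. With the fixed slide term 13 of the 22 were higher. With that term 4 of the 18 plasma cell genes were higher.

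Fc receptor and Syk signalling genes moved one way: 19 of 21 were higher and none lower (median 3.11). The filter took in 2 of the 21 through the CaCl2 arrays, with no unoperated array above background. Fcgr4, an activating IgG receptor, read -3.45, -3.11 and -4.12 unoperated and 2.19, 2.07 and 1.93 at day 42. Syk, the kinase named in the series title, read 0.26, 0.92 and 0.16 against 2.89, 2.77 and 2.61, a rise of 2.31 ± 0.36 (adjusted p = 6.05e-05). Btk, a kinase downstream of the B cell receptor and of Fc receptors, rose by 2.81 ± 0.65, Lat2, an adaptor, by 4.38 ± 0.63, Fgr, a Src-family kinase, by 4.96 ± 0.64, and Lcp2, the adaptor SLP-76, was at least 4.09-fold higher. With the fixed slide term 13 of 21 were higher, Btk and Lat2 not among them.

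All 10 genes of the MHC class II list were higher (median 2.57), the only list with 3 or more genes tested in which every gene passed. H2-Aa, an antigen-presenting chain, read 2.13, 2.30 and 1.38 against 5.22, 4.77 and 5.41, H2-Ab1 rose by 2.90 ± 0.36, Cd74, the invariant chain, by 2.68 ± 0.38, and H2-Oa, a peptide-loading modulator, by 2.95 ± 0.52. With the fixed slide term 6 of the 10 were higher, H2-Oa not among them. Dendritic cell genes were higher in 7 of 9 and lower in 1, with Ccr7, a homing receptor, up by 5.65 ± 0.85, Irf8 by 3.21 ± 0.37, Flt3 by 3.08 ± 0.39 and Clec9a by 2.99 ± 0.40. Other probes of Flt3 changed by 3.46 and 0.51.

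Class II genes share an upstream element, the Y box, and because the members moved together their windows were searched for it (TGATTGG on either strand, 250 bases before the gene start, RefSeq, GRCm38.p6). The letters were chosen after the windows were seen, so the counts describe these windows and are not a test. Windows were found for 7 of the 10 genes, and 6 of the 7 held the element, against 7.23% of all 32851 windows. The longer form CTGATTGG, which contains it, was in 3 of the 7 and in 3.83% of all windows. The matches are shown on the gene's strand with 10 bases on either side and the element in capitals. They lie on chromosome 17, H2-Aa (chr17:34287857-34287883) on the minus strand and the others on the plus strand, at chr17:34305796-34305822 for H2-Eb1, chr17:34092324-34092350 for H2-Oa, chr17:34238836-34238862 for H2-Ob, chr17:34153118-34153144 for H2-DMb1 and chr17:34145147-34145173 for H2-DMb2. Each element starts 45 to 92 bases before the gene.
H2-Aa: gagaattttcTGATTGGttctggcgag
H2-Eb1: cctttgatgcTGATTGGctcccagcac
H2-Oa: agaactgctcTGATTGGctgcttaccg
H2-Ob: tcttcgctctTGATTGGttaacagtgt
H2-DMb1: attcactcagTGATTGGtctgacctgc
H2-DMb2: agtcacttagTGATTGGactgacttaa

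Of 25 chemokine and cytokine genes 22 were higher and none lower (median 3.45), and 14 were higher with the fixed slide term. Of the 25, 6 had passed the filter through the CaCl2 arrays and were above background on no unoperated array. Ccl4 and Ccl3, chemokines of macrophages, were at least 34.6-fold and 25.3-fold higher, Il1b rose by 5.70 ± 0.82 and Cxcl12, a stromal chemokine, by 3.08 ± 0.36. Neutrophil genes were higher in 10 of 15 and lower in none (median 2.24), with Stfa3, a stefin, up by 6.60 ± 0.84. The filter took in 2 of the 15 through the CaCl2 arrays, with no unoperated array above background. Interferon-induced genes were higher in 9 of 16 and lower in none (median 1.51): Mx1 changed by 4.37 ± 0.85, Rsad2 by 2.93 ± 0.83, Ifit1 by 2.79 ± 0.65 and Ifi44 by 2.50 ± 0.63. None of the 16 was called by limma with the fixed slide term, and 0 had an unadjusted p under 0.05. On Ifit1 the sham array of the same slide, at 1.57, lay within the range of the CaCl2 arrays, which read -0.08, 2.23 and 1.23. Cell cycle genes were higher in 14 of 19 and lower in none (median 1.67, and 0.70 after normexp and quantile normalization). Birc5, survivin, rose by 2.63 ± 0.54 and Cdk1 was at least 5.40-fold higher. Of the 19 cell cycle genes 7 were higher with the fixed slide term, without unoperated replicate 1 or without CaCl2 replicate 2, and 9 without unoperated replicate 2.

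The matrix did not move in 1 direction. Collagen genes were higher in 8 of 20 and lower in 5 (median 0.29), against 17.2% and 13% over all genes. Col3a1, a main fibrillar collagen, read 7.84, 7.68 and 8.06 against 8.58, 8.99 and 8.52, a change of 0.84 ± 0.21 (adjusted p = 0.00389), and Col1a1 changed by 0.77 ± 0.25 (adjusted p = 0.0217). Col1a1 and Col3a1 were not called under quantile normalization, and Col1a1 was not called without unoperated replicate 2 or without CaCl2 replicate 2. Col11a1, a collagen of cartilage, was at least 18.0-fold higher and Col5a3 rose by 2.39 ± 0.58, whereas the basement membrane collagens Col4a3, Col4a4 and Col18a1 fell by 3.23 ± 0.64, 1.97 ± 0.49 and 1.99 ± 0.47. The named fibrillar and basement membrane members had opposite signs. The 8 higher collagen genes became 5 without CaCl2 replicate 1 and 4 without replicate 2 of either group. The collagen counts were 3 higher and 1 lower with the fixed slide term, where Col1a1, Col4a4 and Col18a1 were not called.

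Elastic fibre and crosslinking genes were higher in 5 of 20 and lower in 7 (median -0.04). Eln, elastin, read 3.16, 2.85 and 3.89 unoperated and 1.71, 2.98 and -0.30 at day 42, a change of -1.84 ± 0.72 that did not pass (adjusted p = 0.058). The CaCl2 arrays were spread further apart than the unoperated ones, and replicate 2 lay within the unoperated range. Fbln5, a fibulin that assembles elastic fibres, fell by 1.47 ± 0.35 and Ltbp1 by 1.37 ± 0.43, while Ltbp2 rose by 2.55 ± 0.39. Efemp1, fibulin-3, read 0.03, 0.34 and 0.45 against 2.90, 3.19 and 3.73 and rose as well (adjusted p = 5.65e-08). Ltbp1 was not called without unoperated replicate 3 or without CaCl2 replicate 3, where 3 and 2 elastic fibre genes were lower in place of 7, and 3 were higher without replicate 2 of either group. Of 20 proteoglycan and matricellular genes 3 were higher and 6 lower (median -0.28), against 17.2% and 13% over all genes. Lum, lumican, rose by 2.49 ± 0.31, and Postn, periostin, and Ccn1 fell by 1.92 ± 0.33 and 2.42 ± 0.70. Ccn1 was not called without unoperated replicate 1, and without CaCl2 replicate 3 the counts of this list were 5 higher and 3 lower. Only 1 elastic fibre gene was higher and 1 lower with the fixed slide term, Ltbp1 and Ltbp2 not among them, and 2 proteoglycan and matricellular genes were higher and 2 lower. Ccn1 changed by -0.13 with that term (adjusted p = 0.97).

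Among 21 matrix proteases and inhibitors 11 were higher and 6 lower (median 1.48), against 17.2% and 13% over all genes. The filter took in 2 of the 21 through the CaCl2 arrays, with no unoperated array above background. Besides Mmp12, Mmp13, a collagenase, was at least 15.5-fold higher, Adam8 rose by 4.97 ± 0.65, Timp1, an inhibitor of metalloproteinases, by 2.88 ± 0.40 and Mmp2, gelatinase A, by 1.24 ± 0.31. Mmp9, gelatinase B, read -3.46, -3.42 and -5.25 against -2.41, -2.55 and -2.23, a change of 1.65 ± 1.39 that did not pass (adjusted p = 0.396), although the groups did not overlap. Mmp2 was not called with all 30 arrays, and 2 genes of the list were lower without CaCl2 replicate 3. Its counts were 6 higher and 1 lower with the fixed slide term, where Mmp2 was not called. Adventitial fibroblast genes were higher in 7 of 15 and lower in none (median 0.73), with Dpp4 up by 3.48 ± 0.46 and Dpt, dermatopontin, by 1.51 ± 0.38. Of the 15, 3 were higher with the fixed slide term, and Dpt was not called.

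Cartilage and bone genes were higher in 7 of 14 and lower in 1 (median 1.49, and 0.52 after normexp and quantile normalization). The filter took in 2 of the 14 through the CaCl2 arrays, with no unoperated array above background. Ibsp, bone sialoprotein, read -3.63, -2.60 and -3.61 unoperated and 2.76, 1.03 and -2.53 at day 42, a change of 3.70 ± 0.78 (adjusted p = 0.0012). CaCl2 replicate 3 was only just above the unoperated arrays for Ibsp, and the call was lost when the 2 groups were fitted alone. Col2a1, the main collagen of cartilage, read -5.41, -3.64 and -4.20 against 0.06, -0.12 and -3.36, with replicate 3 again the lowest, and was not called without CaCl2 replicate 1 or 2 or without unoperated replicate 1. Among 9 inhibitors of calcification 2 were higher and 1 lower, near the shares over all genes (17.2% and 13%). Ahsg, fetuin-A, rose by 2.09 ± 0.30 and Gas6 by 0.77 ± 0.24. Enpp1, which makes pyrophosphate, fell by 1.30 ± 0.40 and changed by -0.11 at its other probe. Gas6 was not called without CaCl2 replicate 3 or unoperated replicate 1 or 2, nor Enpp1 without CaCl2 replicate 3 or unoperated replicate 2. Cartilage and bone genes were higher in 3 and lower in 1 with the fixed slide term, where Ibsp, Gas6 and Enpp1 were not called.

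Of 20 Wnt, hedgehog and BMP inhibitors 5 were higher and 7 lower (median -0.11), against 17.2% and 13% over all genes. With Sost and Hhip, Dkk1, another Wnt inhibitor, fell by 3.21 ± 0.65, while Sfrp4, a secreted frizzled-related protein, read 4.69, 4.88 and 3.81 against 7.37, 7.86 and 8.35 and rose by 3.40 ± 0.38. Members that fell and members that rose both exceeded the spread of their arrays. Without replicate 2 of either group, and with the fixed slide term, 3 genes of the list were higher.

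Markers of cell types outside the media were read beside these changes and beside shares of 17.2% higher and 13% lower over all genes. None of 12 white adipocyte genes passed by limma (median -0.39, 0 at an unadjusted p under 0.05), their summed signal being 69.0 to 196 times the array's 75th percentile unoperated and 116 to 163 times at day 42, and none of 7 red blood cell genes passed either, again with 0 at an unadjusted p under 0.05. Endothelial genes were higher in 1 of 15 (Robo4, 1.95 ± 0.46) and lower in 1 (Pecam1, -1.57 ± 0.44). Pecam1 changed by 0.41 with the fixed slide term and was not called (adjusted p = 0.76). Skeletal muscle genes were lower in 5 of 10 and higher in 1, with summed signal of 67.4 to 74.5 unoperated and 14.1 to 23.6 at day 42. The fast troponin Tnnc2 fell by 2.56 ± 0.49 and Ckm, muscle creatine kinase, was at least 1.48-fold lower, whereas the fast troponin Tnni2 rose by 3.04 ± 0.65, and Myh1, Myh2, Myh4 and Mylpf, which define fast muscle fibres, did not pass the filter. The part of skeletal muscle in the falls of Casq1 and Mybpc2 was not tested. Brown adipocyte genes were lower in 4 of 9 and higher in 1 (Ucp3, 2.37 ± 0.39): Cidea fell by 3.25 ± 0.91 and Fabp3 by 1.72 ± 0.21, and Ucp1 did not pass the filter.

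Lymphatic and lymphoid tissue genes were higher in 8 of 10 and lower in none (median 1.94), with summed signal of 11.3 to 15.9 unoperated and 45.2 to 60.3 at day 42. The filter took in 2 of the 10 through the CaCl2 arrays, with no unoperated array above background. Glycam1, a ligand of high endothelial venules, was at least 4.53-fold higher, Ltb, lymphotoxin beta, at least 11.7-fold, and Pdpn, podoplanin, rose by 2.69 ± 0.36, while Ccl21a, Lta and Chst4 did not pass the filter. The part of lymph node tissue in the lymphocyte genes was not tested. Of this list 4 genes were higher without CaCl2 replicate 3 and 5 without CaCl2 replicate 2 or unoperated replicate 1 or 2. Nerve and Schwann cell genes were higher in 3 of 12 (Tubb3, Mbp and Mag, by 2.35 ± 0.45, 1.88 ± 0.37 and 1.71 ± 0.30) and lower in 2, among them Ncam1 (-2.54 ± 0.57). The shares over all genes were 17.2% higher and 13% lower. None of the 12 was called higher by limma with the fixed slide term, and 1 lower, with 4 at an unadjusted p under 0.05. Mast cell genes were higher in 1 of 8 and lower in 1: Kit, the stem cell factor receptor, fell by 2.40 ± 0.37, and Tpsb2, a tryptase, changed by 1.50 ± 0.32 at the probe used and by -0.71 at its other probe. Both of the 2 mesothelium genes tested were higher, by 2.10 and 4.42, and 1 was with the fixed slide term. The filter took in 1 of the 2 through the CaCl2 arrays, with no unoperated array above background. The larger change was that of the transcription factor Wt1 (at least 4.63-fold), while Msln, Upk3b, Upk1b, Lrrn4 and Muc16 did not pass the filter. One gene each of the adrenal cortex and pancreas lists passed, Cyp21a1 (0.72 ± 0.20) and Cela1 (1.47 ± 0.47).

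Immediate early, clock and respiratory chain genes were read as well, beside shares of 17.2% higher and 13% lower over all genes. Of 17 immediate early and stress genes 2 were higher and 4 lower (median -0.97), and Hspa1a, an inducible heat shock protein, read 0.30, 3.10 and 2.67 against -0.54, -0.36 and -1.11, with unoperated replicate 1 apart from the others. Only 1 or 2 of the 17 were lower without CaCl2 replicate 1 or 3 or unoperated replicate 1 or 3, and with the fixed slide term limma called none, with 0 at an unadjusted p under 0.05. Of 17 circadian clock genes 1 was higher and 3 lower: Arntl, a core activator of the clock, was at least 5.31-fold higher, while Cry2 fell by 0.83 ± 0.21, Per2 by 1.64 ± 0.56 and Tef by 0.95 ± 0.36. On Arntl the 2 sham arrays read -1.10 and -4.89, as far apart as the groups. Per2 was called only when all 6 arrays, or all but unoperated replicate 1, were in the fit, and Tef only when all 6 were. Of 21 respiratory chain genes 4 were lower and none higher (median -0.16), Atp5b, a subunit of ATP synthase, among them at -0.69 ± 0.17. With all 30 arrays, and with the fixed slide term, none of the 21 was lower by limma, and 0 had an unadjusted p under 0.05. Of the 21, 1 or 2 were lower without unoperated replicate 1, 2 or 3 or CaCl2 replicate 1 or 2, 6 without CaCl2 replicate 3, and 9 after normexp and quantile normalization.

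The CaCl2 arrays were also set against the sham arrays, which had an operation with saline in place of CaCl2. Against the 2 sham arrays kept, 1662 genes (7.14%) were higher and 1193 (5.13%) lower in the CaCl2 arrays, 12.3% in all. The CaCl2 arrays enter both this comparison and the one against unoperated mice, so the values are set side by side. Of the contractile list 15 of 20 were lower than sham, of the Fc receptor and Syk list 15 of 21 higher, of the vasoactive receptors 10 of 22 lower, and of the immunoglobulin features 66 of 73 higher, the 44 that passed the filter through the day 42 CaCl2 arrays included. Acta2 read 10.19 and 9.99 on the sham arrays and Myh11 7.05 and 7.30, both near the unoperated arrays.

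Some of the genes named above read higher on the sham arrays than on the unoperated ones, a difference that was not tested. Mmp12 read -1.98 and 1.48 there, the higher of them level with the lowest CaCl2 array at 1.46, and its difference between CaCl2 and sham did not pass (adjusted p = 0.087). Syngr1 read -1.89 and -0.10 and Ccl8 4.31 and 4.48, and neither passed against sham (adjusted p = 0.065 and 0.12). Trem2 read 2.80 and 4.50 on sham, between the unoperated and the CaCl2 arrays, and passed (adjusted p = 0.0094). No interferon-induced gene of 16 differed from sham by limma, with 1 at an unadjusted p under 0.05.

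Day 42 was also set against day 7 of the same treatment, whose arrays lay on the same slide. Of the genes tested 172 (0.739%) were higher and 56 (0.241%) lower at day 42, 0.98% in all. The number called depended on the fit: it was 683 when the wild-type arrays were fitted alone and 433 with the fixed slide term. Of the 73 immunoglobulin features 48 were among those higher, and their being higher at day 42 was again partly fixed by the filter. Jchain rose between the days, from a mean of 0.66 to 5.52 (adjusted p = 0.019), and so did complement genes, of which 5 of 20 were higher, C3 from 7.26 to 9.47 (adjusted p = 0.00022) and C4b from 5.60 to 7.22 (adjusted p = 0.0006). Ibsp was higher by 5.45 at day 42 (adjusted p = 0.00033) and Efemp1 by 1.66 (adjusted p = 0.00058). For Ibsp the day 7 mean lay below every unoperated array, and the day 42 arrays were spread widely, with replicate 3 the lowest. Postn and Cthrc1, a collagen-modifying protein of repair fibroblasts, were lower at day 42 than at day 7, with differences of -2.17 and -3.16 (adjusted p = 0.00057 and 0.0006).

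None of the 20 contractile genes, the 22 T and NK cell genes, the 20 recruited macrophage genes or the 21 Fc receptor and Syk genes differed between day 7 and day 42 by limma, where 1, 3, 2 and 2 of them had an unadjusted p under 0.05. Myh11 averaged 3.95 at day 7 and 4.77 at day 42, Spp1 6.70 and 5.47, and Trem2 6.92 and 6.29, differences that did not pass. Without CaCl2 day 42 replicate 3 the number of genes that differed between the days was 95.

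**Figure D4:**
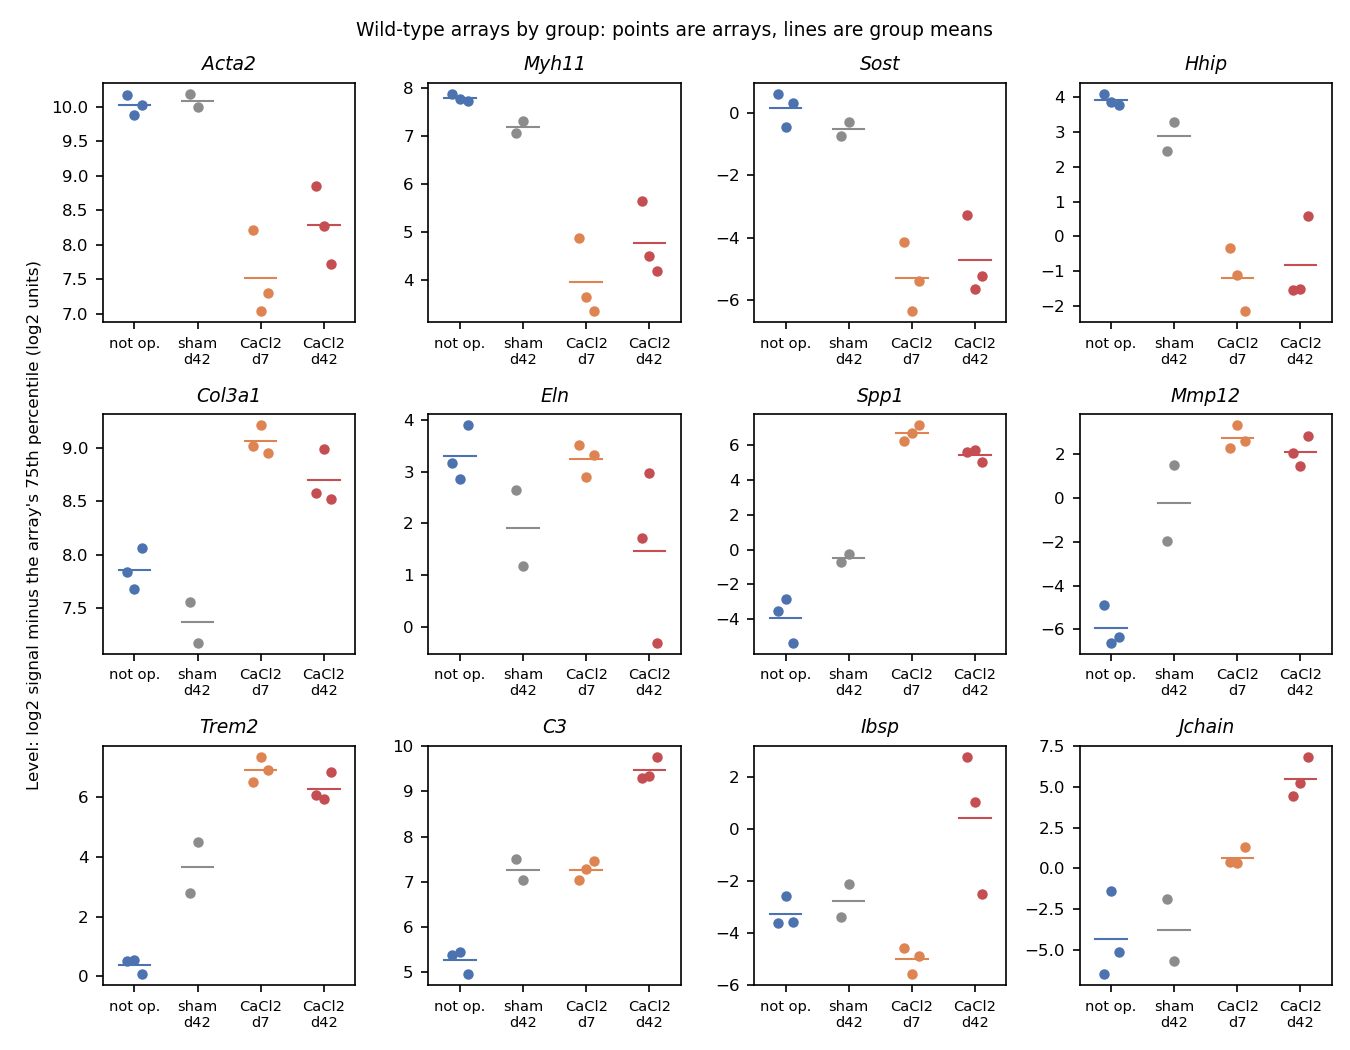
Levels of 12 genes in wild-type groups, in log2 units where 0 is the array's 75th percentile: unoperated (3 arrays), sham day 42 (2 arrays), CaCl2 day 7 and CaCl2 day 42 (3 each), with lines at the group means. Acta2, Myh11, Sost and Hhip are low at day 7 already, while C3, Ibsp and Jchain stand higher at day 42 (5.52 for Jchain) than at day 7 (0.66).

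The same late change was measured in uMT mice, and the difference between the genotypes in the change was tested as an interaction: 3261 genes (14%) changed more towards higher values in wild type and 1188 (5.11%) less, 19.1% in all. This comparison crosses slides with genotype and includes 3 uMT arrays with under 50% of probes above background. All 30 arrays gave 1134 genes, and leaving out wild-type CaCl2 day 42 replicate 3 gave 2705. Leaving out the dim arrays keeps only replicate 3 of the uMT CaCl2 day 42 group, so only effect sizes are given for that fit. A random slide term with all 30 arrays, chosen after seeing the data, gave 0 by limma, with 655 at an unadjusted p under 0.05. Without the dim sham array, as in the main fit, a random slide term gave 6174.

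Among the antibody and B cell genes named above, Jchain changed by 9.86 in wild type and by 0.56 in uMT, a difference of 9.30 (adjusted p = 0.00022), and Pou2af1 by 5.28 and 0.52. The 6 named immunoglobulin features changed by between 0.36 and 2.22 in uMT mice, and 56 of the 73 features differed, again with the 44 that the wild-type CaCl2 arrays had brought through the filter. Cd79a, at the probe used, changed by 1.49 in wild type and 0.16 in uMT (adjusted p = 0.031).

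Outside the B lineage, 13 of 20 complement genes changed more in wild type, with C3 at 4.22 against 2.56 and Cfi at 6.49 against 2.75 (adjusted p = 0.01 and 0.013). Of 14 resident macrophage genes 10 did, with Mrc1 at 2.21 against 0.01 and Ccl8 at 6.04 against 1.19. For 15 of 21 respiratory chain genes the difference was positive: Atp5b changed by -0.69 in wild type and by -1.49 in uMT, the larger fall being that of uMT. Under quantile normalization the difference for Atp5b was -0.14 and for Cox6a1 0.08, and neither passed (adjusted p = 0.75 and 0.85). No contractile gene of 20 and no osteoclast gene of 11 differed by limma, with 1 in each list at an unadjusted p under 0.05: Acta2 changed by -1.74 and -1.82, Spp1 by 9.38 and 9.97, and Syk by 2.31 and 2.13. For Myh11, at -3.01 and -1.24, the difference did not pass either (adjusted p = 0.17).

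Some of the largest differences rested on a change in uMT mice. Cyp2b10, a cytochrome P450, did not pass in wild type (-0.73 ± 0.76) and changed by -5.85 in uMT, and Cldn10, a claudin, changed by 2.09 and -2.60. Col15a1, a basement membrane collagen, changed by -0.10 ± 0.54 in wild type and by 3.14 in uMT, Slc6a7 by -0.74 and 2.39, Grifin by -0.52 and 2.43, Srcin1 by 0.87 and 3.65, and 1700029H14Rik by 0.32 and 3.13. Without the dim arrays the differences kept their sign and were smaller in size. They were 3.63 for Cldn10 and 3.38 for Cyp2b10. For Col15a1, Slc6a7, Grifin, Srcin1 and 1700029H14Rik they lay between -2.48 and -1.91. That fit rests on replicate 3 alone of the uMT CaCl2 day 42 group, so no test result is given.

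**Figure D5:**
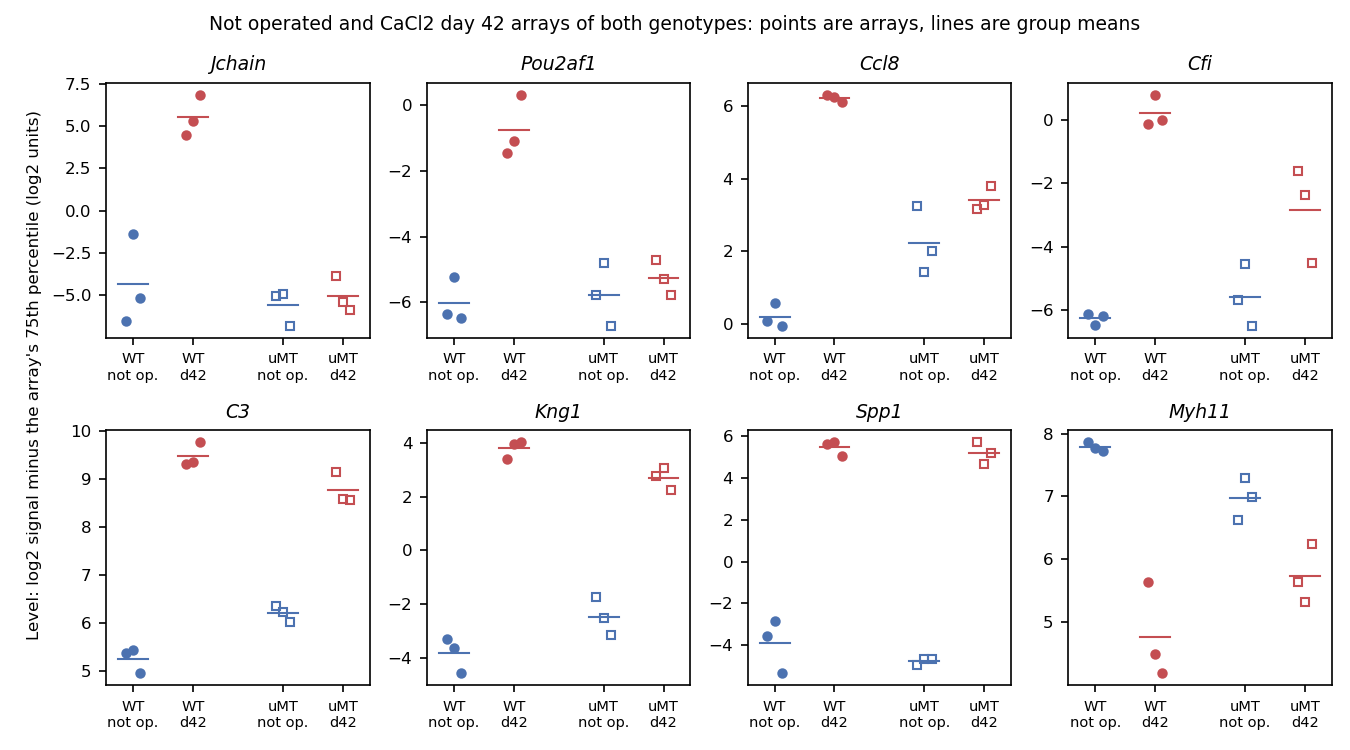
Levels of 8 genes on unoperated and CaCl2 day 42 arrays of wild-type (filled circles) and uMT mice (open squares), in log2 units where 0 is the array's 75th percentile, with lines at the means of 3 arrays. Jchain and Pou2af1 reach 5.52 and -0.74 on average in wild type and change by 0.56 and 0.52 in uMT, while Spp1 is high at day 42 and Myh11 low in both genotypes.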

How the data were processed

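Spot intensity values were deposited by the authors for 30 arrays. Per the file headers they were made with Agilent Feature Extraction 10.7.1.1 (9.5.1.1 per the submitters' processing notes), which subtracted background, and probe coordinates are mm9. A table of the authors' processed values, on a linear intensity scale, was used as an alternative. Unflagged spots of a probe were averaged. The log2 signal was centred on the array's 75th percentile, and probes well above background on all 3 arrays of at least 1 group were kept (33224), the brightest standing for a gene. Lists with 1 gene above background on every CaCl2 array and no unoperated array were recruited macrophage, plasma cell, complement and MHC class II. The cell cycle, proteoglycan and matricellular, and circadian clock lists also held 1 each. One mean per group was fitted with limma 3.58.1 (R 4.3.3) over 29 arrays, without the dim sham array (19 residual degrees of freedom), with Benjamini-Hochberg adjustment over 23266 genes. A permutation of 3 arrays against 3 cannot give p below 0.1. The number of arrays limits the precision. No spot was saturated.

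"At least" folds set the brighter group's mean against, on each array of the dimmer group, the higher of the probe's signal and the lowest signal well above background. The members and gene lists were chosen with earlier results of these data known. Named genes were the 15 that rose most and the 15 that fell most with a symbol, all arrays of the higher group above background and no overlap, up to 4 such members of each list, a set always named such as Jchain and Eln, up to 6 immunoglobulin features, and the 5 largest genotype differences each way. Genes outside this rule, those below the filter and those with a promoter match, were named after their values were seen. One gene that the rule chose is not reported here. The fit was tested on simulated data. Replicate numbers do not pair the samples (correlations of -0.0912, -0.0113 and -0.233). The design text names RNeasy for purification and the extraction protocol an SV system. Alternatives covered the arrays fitted, background correction, normalization, filter, probe choice, slide and replicate blocks and each array left out.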

Additional observations from a re-analysis of the deposited data

Results flagged for a closer look

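These values are differences in the late change, wild type minus uMT in log2 units, that passed the interaction test among the genes named above. They share the limits given there: with a random slide term and all 30 arrays none of the 41 passed. With a random slide term but without the dim sham array all of them passed (limma, adjusted p at most 0.0262). The correlation within slides was -0.0687 in that fit and 0.782 with all 30 arrays. Without the dim arrays only replicate 3 of the uMT CaCl2 day 42 group is left, so no count is given for that fit.

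The immunoglobulin features and Jchain had the largest values: 10.45 and 10.13 for the J558-family heavy chain features (change 11.76 and 12.35 in wild type), 9.32 for the kappa constant feature, 9.30 for Jchain, 8.58 for lambda variable 1, 6.95 for Igh-VJ558 and 6.93 for kappa variable 14-111. Pou2af1 differed by 4.76, Fcmr by 4.32, Derl3 by 3.21 and Cd79a by 1.34.

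In the complement and kinin systems Cfi differed by 3.74, C3 by 1.66 and C4b by 1.29, and Kng2 by 3.63 and Kng1 by 2.48. Chemokine, myeloid and class II genes differed by 4.85 (Ccl8), 2.81 (Ccl4), 2.17 (Cxcl12), 2.41 (Pf4), 2.19 (Mrc1), 1.96 (Fcgr4), 2.02 (H2-Aa) and 1.56 (H2-Ab1). The NK and T cell genes Klrb1c and Txk differed by 2.10 and 1.96, and Cma1, a mast cell chymase, by 3.93.

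Stromal and plasma protein genes differed by 2.05 (Dpp4), 1.65 (Efemp1), 1.60 (Dpt) and 1.84 (Ahsg), and respiratory chain genes by 1.01 (Cox6a1), 0.80 (Atp5b) and 0.78 (Uqcrc1). Under quantile normalization the difference was -0.14 for Atp5b (adjusted p = 0.75), 0.08 for Cox6a1 (0.85) and 0.55 for Uqcrc1 (0.063), so none of these passed and the sign of Atp5b turned. Also without a call under quantile normalization were C4b, H2-Ab1, Klrb1c, Mrc1, Pf4 and Txk. Cyp2b10 differed by 5.12 and Cldn10 by 4.69. The negative values were -3.25 for Col15a1, -3.13 for Slc6a7, -2.95 for Grifin, -2.80 for 1700029H14Rik and -2.77 for Srcin1.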

How the results depend on the processing

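All 7036 genes called at day 42 kept their sign when each of the 6 arrays was left out and under the other normalizations. With slide as a fixed block 6959 did, and 7012 did with slide as a random block over all 30 arrays, an alternative chosen after seeing the data. With all 30 arrays and no slide term the changes were the same by construction, because the added array is in neither group. The genes called higher and lower numbered 2249 and 1468 with all 30 arrays, 1087 and 368 with the random block over all 30 arrays, 1388 and 892 with the fixed block, and 2448 and 1555 at an adjusted p under 0.01, and 1465 of the lower ones reached 1 log2 unit. Leaving out 1 array gave 3006 to 3636 higher and 2043 to 2639 lower. The genotype difference counted 1134 genes with all 30 arrays, 0 with the random block over all 30 arrays (655 at an unadjusted p under 0.05), 1739 without the dim arrays, and 2705 to 4746 with 1 array left out, CaCl2 replicate 3 giving the lowest. Day 42 against day 7 counted 129 genes with all 30 arrays, 683 with the wild-type arrays alone, 433 with the fixed block, 378 after normexp and quantile normalization, and 95 to 280 with 1 array left out. CaCl2 against sham counted 1878 genes with no filter, 1066 with the random block over all 30 arrays, and 1601 to 2603 with 1 array left out. The cause was not tested. Correlation within slides was -0.0687 over 29 arrays and 0.782 over 30. With the replicate block, 3799 genes were higher and 2817 lower, and the numbers do not pair the samples.

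Normexp and quantile normalization gave smaller medians for several lists, among them osteoclast genes (0.61), matrix proteases and inhibitors (0.45) and vasoactive receptors (-0.89). It left the contractile list at -2.52. Of 173 named genes that passed, 157 did with all 30 arrays and 117 with the fixed block. Signs turned for Cma1 (0.076 with the random block over all 30 arrays, 0.52 with the fixed block), Col15a1 (0.22 and 0.33, and -0.50 to 0.27 with 1 array left out, 0.09 without CaCl2 replicate 3) and Grifin (0.90 and 1.57), none of which had passed, and for Pecam1 (0.41 with the fixed block). Against the sham array of the same slide alone, Ccn1 read 0.15 and Ifit1 -0.45.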

Other observations

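Of 4 Y-linked genes tested, Ddx3y was lower at day 42 (-0.46 ± 0.17, adjusted p = 0.048) and the other 3 did not pass. Ddx3y was not called under 15 of 24 alternatives, among them all 30 arrays and the omission of any array of the 6 except CaCl2 replicate 2. Xist was not well above background on all 3 arrays of any group.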
